A study of Bos taurus with 4 samples.

Results

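Transcripts of 40 cell cycle and DNA replication genes were examined in bovine blastocysts that developed from vitrified or slow-frozen morulae. The genes cover cyclins and their kinases, the factors that license and copy DNA, the enzymes that supply its building blocks, and the kinases and checkpoint proteins of mitosis. Every probe of the EmbryoGENE EMBV3 array whose platform gene symbol was one of the 40 was taken, without choosing among probes of a gene. That gave 61 of the 43794 probes on the array, for 39 of the 40 genes. No probe carried the symbol CDC45. The array held 1 probe for 27 of these genes and 2 or more for 12.

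Expression was measured in 8 pools of expanded blastocysts produced in vitro, 4 from morulae that had been vitrified and 4 from morulae that had been slow-frozen. Vitrified morulae were solidified without ice on a Cryotop carrier in ethylene glycol, dimethyl sulfoxide and sucrose. Slow-frozen morulae were equilibrated in 1.5 M glycerol and cooled in straws at 0.5 °C per min to -35 °C before liquid nitrogen. All embryos came from abattoir ovaries and were fertilized in vitro with semen of a bull, and after warming they were cultured for 24 to 48 h. The labels give 7 embryos per pool and an age of 7 days after fertilization, whereas the methods allow fewer embryos per pool and collect morulae at that age. Only embryos that reached the expanded stage were pooled. The methods took 1 tube of each group from each of 4 production cycles run on separate dates, and the labels do not say whether equal replicate numbers mark the same cycle. According to the methods, the groups were hybridised on separate slides, each pool against an unfrozen control that was not analysed here, so slide and cryopreservation method cannot be told apart.

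A dividing cell commits to a new cycle in G1, when D-type cyclins with CDK4 and CDK6, and then cyclin E with CDK2, release the E2F factors that drive replication genes. Licensing factors load the MCM helicase on origins, which fire in S phase, and cyclin A and cyclin B with CDK1 then carry the cell through G2 into mitosis, where the spindle checkpoint delays separation until chromosomes are attached. Cleaving embryos run short cycles largely on stored maternal products, and longer cycles with gap phases return after the embryonic genome is activated, before the blastocyst forms its trophectoderm and inner cell mass.

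The pools differed in brightness, and a vitrified pool stood apart from the rest. On the first principal component of all tested probes (24.8% of the variance) vitrified replicate 3 was at 56.56, the other vitrified pools were at -8.18 to -3.75 and the slow-frozen pools at -34.27 to 9.56. Without vitrified replicate 3 the differences of CCND2, CDC25C and the first TYMS probe were -0.48, 0.49 and 0.48. Median raw intensity ranged from 109 to 384 and the share of probes above the negative controls from 63.3% to 74.1%. Pools correlated at 0.966 to 0.985 within the vitrified group, at 0.968 to 0.977 within the slow-frozen group and at 0.957 to 0.984 between groups, across probes. Of the 61 cell cycle probes, 58 to 60 were above the negative controls in vitrified pools and 55 to 58 in slow-frozen pools. Cy5 labelled replicates 1 and 2 of each group, and Cy3 labelled replicates 3 and 4.

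Cell cycle transcripts were present in blastocysts of both groups. A probe was tested if it was brighter, before normalization, than 95% of the negative control spots in 3 or more of the 4 pools of a group, and 60 of the 61 probes, for 38 genes, met this rule. Of these, 48 were above the controls in all 8 pools (80%, against 67.1% of all 30034 probes tested). The probe left out was that of CCND1, which encodes cyclin D1. It was above the controls in 0 of 4 vitrified pools and 0 of 4 slow-frozen pools, so no difference is given for it.

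No cell cycle probe differed between vitrified and slow-frozen pools after Benjamini-Hochberg adjustment (limma, 0 of 60, against 0.00333% of all probes, which is 1 probe). At an unadjusted p under 0.05 there were 3 cell cycle probes, 5% of those tested, against 4.81% of all probes. Of the 3, those of CDC25C and TYMS were higher in vitrified pools (2.44% of all probes were called in that direction) and that of CCND2 was lower (2.36%). The same 3 were the cell cycle probes whose 4 vitrified values did not overlap the 4 slow-frozen values (5%, against 2.47% of all probes, 1.48% with the vitrified and 0.986% with the slow-frozen pools on top). The study asked for a 2-fold change with an unadjusted p under 0.05, and at these thresholds the count was 0 of 60, against 0.19% of all probes. The unadjusted count depended on single pools: it was 1 when vitrified replicate 2 was left out, 5 when either vitrified replicate 3 or slow-frozen replicate 1 was, and 7 when slow-frozen replicate 4 was.

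The differences, given throughout as log2 of normalized intensity in vitrified minus slow-frozen pools, were small in both directions. Their median over the 60 probes was 0.01, and over all probes tested also 0.01. They ran from -0.49 to 0.44, with 32 probes higher and 28 lower in vitrified pools (53.3% higher, against 51.4% of all probes). For 55 of the 60 probes the difference was under 0.3 in size (91.7%, against 87.9% of all probes). The 95% interval of the difference lay within a 2-fold change either way for all 60 probes, against 96.3% of all probes, and within a 1.5-fold change for 40 of 60 (66.7%, against 68.6%). The residual SD between pools had a median of 0.24 over the cell cycle probes and 0.24 over all probes, so the members were measured about as precisely as the rest of the array. The interval reached 0.37 to either side of the difference at the median cell cycle probe.

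**Figure D1:**
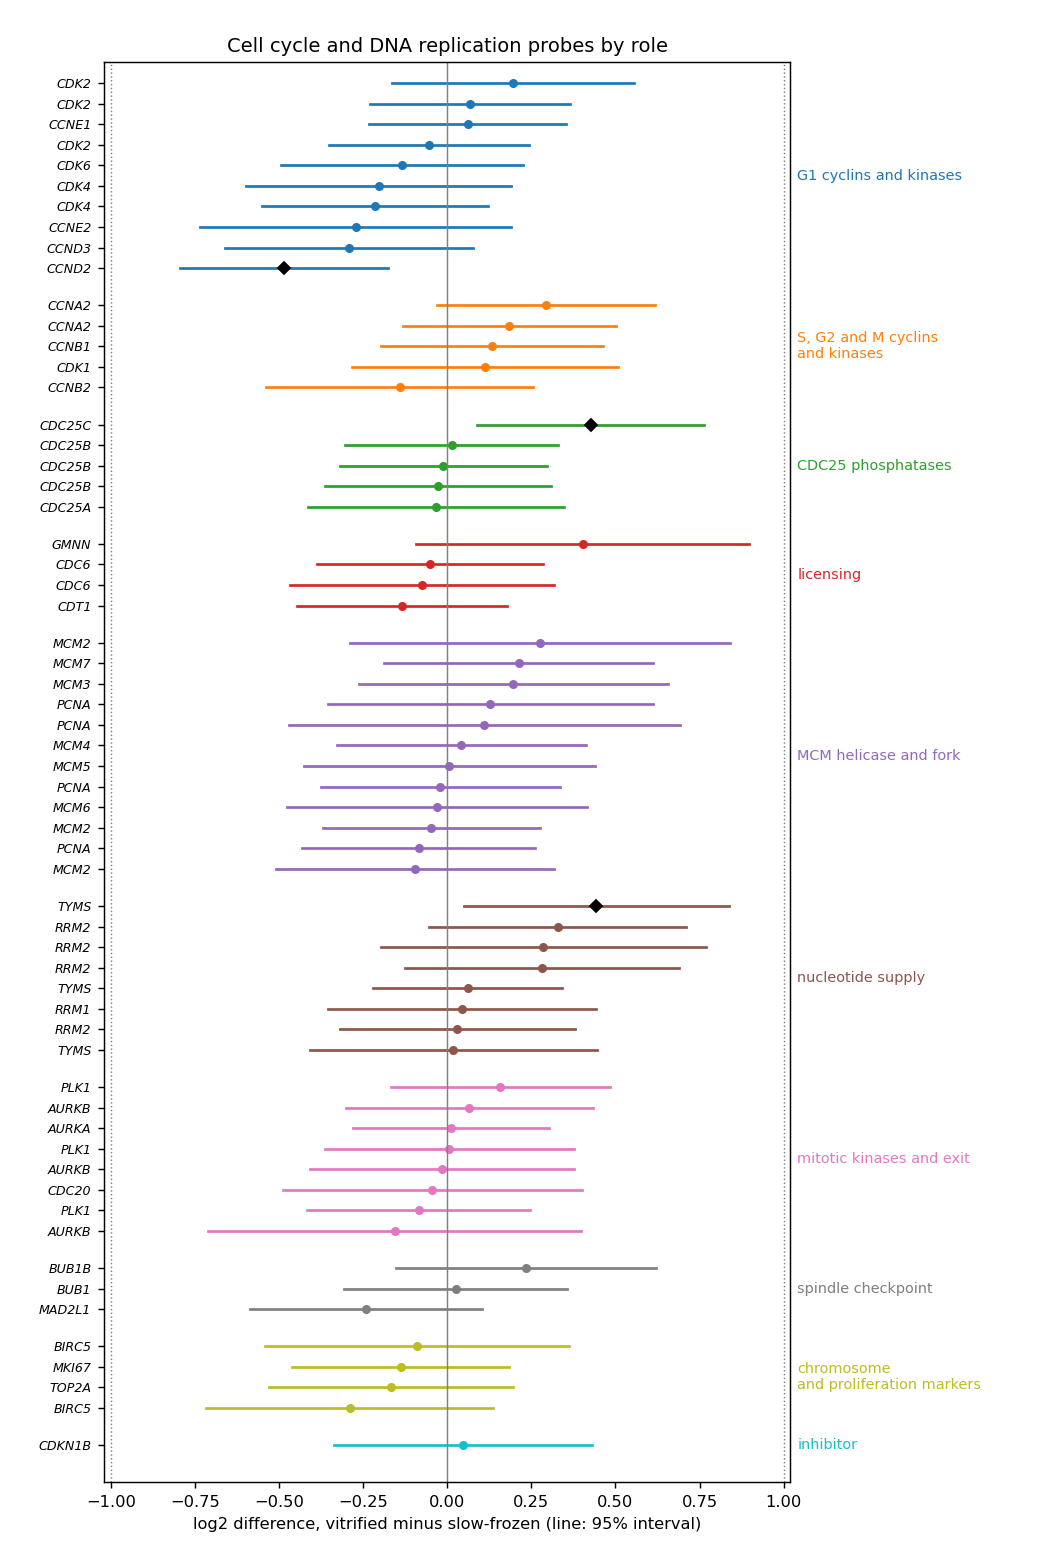
Log2 difference of each of the 60 tested probes, vitrified minus slow-frozen, as a point with its 95% interval, grouped by role (dotted lines: 2-fold either way). The 3 black diamonds, for CCND2, CDC25C and TYMS, are the probes with an unadjusted p under 0.05, and the intervals of all 60 lie between -0.79 and 0.90.

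The G1 cyclins and kinases held the lowest difference of the set. Cyclin D2 (CCND2), a D-type cyclin that activates CDK4 and CDK6, had levels of 12.19, 12.11, 12.22 and 12.12 in vitrified replicates 1 to 4, against 12.35, 12.69, 12.79 and 12.75 in slow-frozen replicates 1 to 4. The vitrified pools lay close together and all were below the lowest slow-frozen pool. The mean was 12.16 ± 0.05 in vitrified and 12.65 ± 0.20 in slow-frozen pools (SD, n = 4 each). The difference was -0.49 ± 0.14 (SE, 95% interval -0.79 to -0.18), or 1.40-fold lower in vitrified pools, with an unadjusted p of 0.00533 and an adjusted p of 0.82 (limma, Benjamini-Hochberg). It kept its sign and an unadjusted p under 0.05 when any 1 pool was left out, ranging from -0.58 to -0.44.

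Cyclin D3 (CCND3), the D-type cyclin that acts with the same kinases, had 8.61, 8.11, 8.23 and 8.40 in vitrified pools, against 8.65, 8.62, 8.88 and 8.36 in slow-frozen pools. The groups overlapped, and the difference was -0.29 ± 0.17 (95% interval -0.66 to 0.08). Both probes of CDK4, the kinase partner of D-type cyclins, were lower in vitrified pools, with differences of -0.20 ± 0.18 and -0.21 ± 0.15, and the second was above the controls in only 2 of 4 vitrified pools, against 4 of 4 slow-frozen pools. CDK6, the other such kinase, differed by -0.13 ± 0.16. All 5 tested probes of D-type cyclins and their kinases were thus on the lower side in vitrified pools, with a median of -0.21, and stayed there when any 1 pool was left out. The second CDK4 probe passed the filter only through the slow-frozen pools, where it is higher. Of the probes above the controls in all 8 pools, 3 belong here, with a median of -0.29. This grouping was made after the values were seen and has no test, and 4 of its 5 intervals include 0.

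The second step of G1 did not run one way. Cyclin E1 (CCNE1), which activates CDK2 at entry into S phase, differed by 0.06 ± 0.13, and cyclin E2 (CCNE2), its paralog, by -0.27 ± 0.21. The 3 probes of CDK2 differed by 0.20, 0.07 and -0.05. The inhibitor p27 (CDKN1B), which binds these cyclin and kinase complexes, had 8.01, 8.33, 8.35 and 8.11 in vitrified pools, against 8.48, 7.95, 7.87 and 8.29 in slow-frozen pools. Its values overlapped fully, with a difference of 0.05 ± 0.17 (95% interval -0.34 to 0.43), and its sign turned when vitrified replicate 3 or slow-frozen replicate 2 or 3 was left out (-0.02, -0.04 and -0.06).

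The cyclins and kinase of S phase, G2 and mitosis lay mostly on the higher side, within their error. Cyclin A2 (CCNA2), which acts in S phase and G2, was read by 2 probes, both higher in vitrified pools. The first had 13.14, 13.36, 13.19 and 13.02 in vitrified pools, against 13.12, 13.08, 12.70 and 13.07 in slow-frozen pools, a difference of 0.18 ± 0.14 (95% interval -0.13 to 0.50), with slow-frozen replicate 3 well below the others. The second had 7.41, 7.58, 7.44 and 7.52 in vitrified pools, against 7.05, 6.92, 7.31 and 7.49 in slow-frozen pools. It was above the controls in 4 of 4 vitrified pools but only 1 of 4 slow-frozen pools, so its difference of 0.29 ± 0.15 (95% interval -0.03 to 0.62) sets measured values against values near the floor. Cyclin B1 (CCNB1) and CDK1, which form the complex that starts mitosis, differed by 0.13 ± 0.15 and 0.11 ± 0.18. Cyclin B2 (CCNB2), a second partner of CDK1, differed by -0.14 ± 0.18.

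Of the CDC25 phosphatases, which remove inhibitory phosphates from CDKs, only CDC25C had groups that did not overlap. It had 10.24, 10.60, 10.35 and 10.74 in vitrified pools, against 10.08, 10.03, 10.17 and 9.94 in slow-frozen pools. All vitrified pools were above all slow-frozen pools, which lay close together. The mean was 10.48 ± 0.23 in vitrified and 10.06 ± 0.10 in slow-frozen pools (SD, n = 4 each). The difference of 0.43 ± 0.15 (95% interval 0.09 to 0.76), or 1.34-fold higher, had an unadjusted p of 0.0178 and an adjusted p of 0.94 (limma, Benjamini-Hochberg). The unadjusted p no longer passed 0.05 when vitrified replicate 2 (difference 0.37), vitrified replicate 4 (0.34) or slow-frozen replicate 4 (0.37) was left out. CDC25A, which acts mainly at entry into S phase, had 8.14, 8.47, 8.32 and 7.90 in vitrified pools, against 8.12, 8.49, 8.40 and 7.95 in slow-frozen pools. Both groups covered the same range, with a difference of -0.03 ± 0.17 (95% interval -0.41 to 0.35). The 3 probes of CDC25B, which acts at the start of mitosis, differed by 0.01, -0.01 and -0.03.

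**Figure D2:**
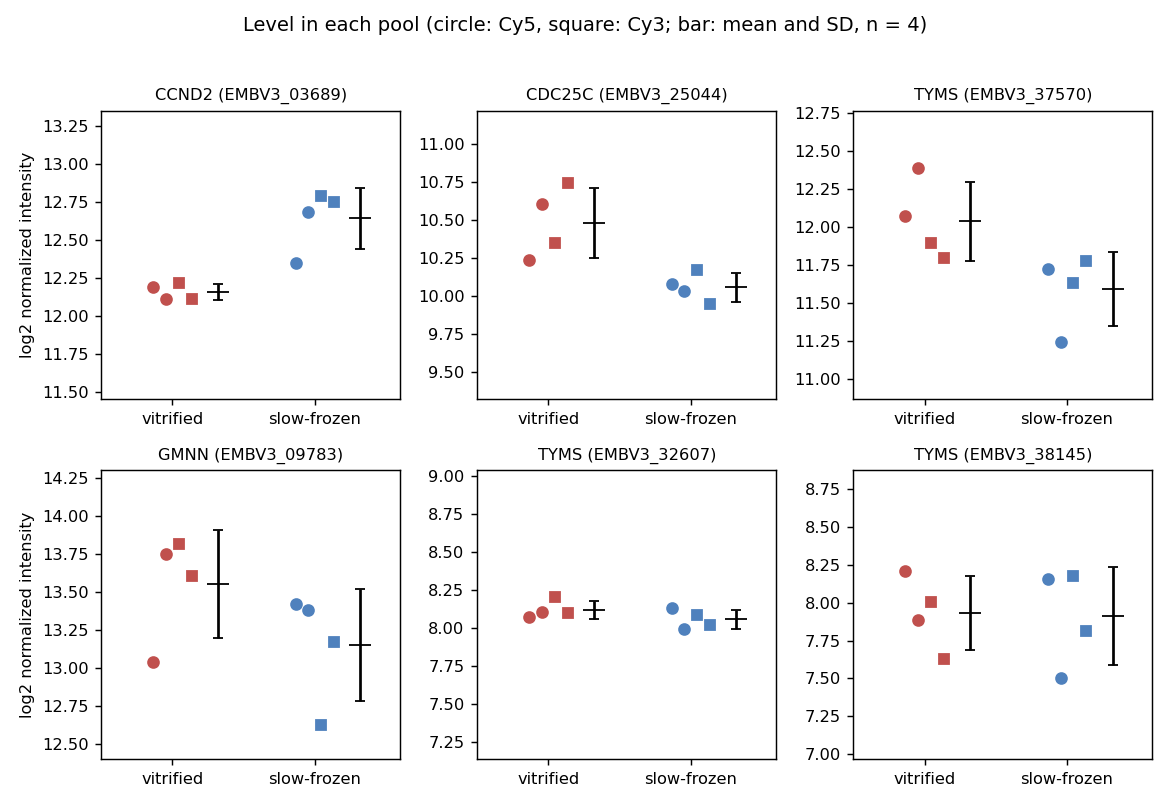
Log2 normalized intensity in each pool, vitrified left of slow-frozen, for the CCND2, CDC25C and GMNN probes and the 3 probes of TYMS (bars: mean and SD of 4 pools; each panel spans the same height). The groups do not overlap for CCND2, CDC25C and the TYMS probe in the upper row, and overlap for GMNN and the other TYMS probes.

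Licensing of origins was read by 4 probes of 3 genes. Geminin (GMNN), which blocks renewed licensing after S phase has begun, had 13.04, 13.75, 13.82 and 13.61 in vitrified pools, against 13.42, 13.38, 12.62 and 13.17 in slow-frozen pools. Vitrified replicates 2, 3 and 4 were above every slow-frozen pool, and vitrified replicate 1 was below 3 of them. The difference was 0.40 ± 0.22 (95% interval -0.09 to 0.90), and it depended on single pools, at 0.63 when vitrified replicate 1 was left out, with an unadjusted p that passed 0.05 in limma, and 0.21 when slow-frozen replicate 3 was, without passing. CDT1, the loading factor that geminin binds, had 7.48, 7.60, 7.60 and 7.58 in vitrified pools, against 7.41, 7.62, 7.79 and 7.98 in slow-frozen pools. The vitrified pools fell inside the slow-frozen range, with a difference of -0.13 ± 0.14 (95% interval -0.45 to 0.18). The 2 probes of CDC6, which loads the helicase together with CDT1, differed by -0.07 and -0.05.

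The MCM helicase and its partners at the fork showed no common direction. The helicase is a ring of the subunits MCM2 to MCM7, which unwinds DNA ahead of the polymerases. MCM7 had 10.36, 10.74, 10.38 and 10.21 in vitrified pools, against 10.00, 10.02, 10.60 and 10.21 in slow-frozen pools, a difference of 0.21 ± 0.18 (95% interval -0.19 to 0.61) with overlap between the groups. The first MCM2 probe had 9.60, 10.63, 9.53 and 10.43 in vitrified pools, against 10.10, 9.56, 9.65 and 9.78 in slow-frozen pools. Vitrified replicates 2 and 4 were high and replicates 1 and 3 low, and the difference was 0.28 ± 0.26 (95% interval -0.29 to 0.84). The other MCM2 probes differed by -0.10 and -0.05. MCM3, MCM4, MCM5 and MCM6 differed by 0.20, 0.04, 0.01 and -0.03, with SEs of 0.17 to 0.21. Over the 12 probes of the group 7 were higher and 5 lower, with a median of 0.02.

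PCNA, the sliding clamp that holds polymerases on DNA and a common marker of S phase, was read by 4 probes. The first had 13.96, 14.19, 14.13 and 14.07 in vitrified pools, against 14.14, 13.96, 13.86 and 14.47 in slow-frozen pools. The vitrified pools lay inside the slow-frozen range, and the difference was -0.02 ± 0.16 (95% interval -0.38 to 0.34). The other probes differed by -0.08, 0.13 and 0.11. CDC45, which joins the helicase when origins fire, was read only under its older symbol, by a probe outside the set, which differed by 0.08 ± 0.15.

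All 8 probes for the supply of deoxynucleotides were on the higher side in vitrified pools, with a median of 0.17, but they read only 3 genes. An RRM2 probe among them passed the filter only through the vitrified pools, where it is higher, and the 7 probes above the controls in all 8 pools had a median of 0.28. RRM2, the small subunit of ribonucleotide reductase that is made in S phase, accounted for 4 of them. Its first probe had 14.04, 13.95, 14.19 and 13.71 in vitrified pools, against 14.02, 13.57, 13.31 and 13.67 in slow-frozen pools. Slow-frozen replicate 1 reached the vitrified levels and the other slow-frozen pools were below all of them, for a difference of 0.33 ± 0.17 (95% interval -0.05 to 0.71). The other RRM2 probes differed by 0.28, 0.29 and 0.03, the last above the controls in 4 of 4 vitrified and 2 of 4 slow-frozen pools. RRM1, the large subunit, differed by 0.04 ± 0.18. When 1 pool was left out, between 6 and 8 of the 8 probes were higher in vitrified pools.

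Thymidylate synthase (TYMS), which makes the thymidine nucleotide for DNA, was read by 3 probes that did not give one answer. The first had 12.07, 12.39, 11.90 and 11.80 in vitrified pools, against 11.72, 11.24, 11.63 and 11.78 in slow-frozen pools. All vitrified values were higher, though vitrified replicate 4 and slow-frozen replicate 4 nearly met. The mean was 12.04 ± 0.26 in vitrified and 11.59 ± 0.24 in slow-frozen pools (SD, n = 4 each). The difference was 0.44 ± 0.18 (95% interval 0.05 to 0.84), or 1.36-fold higher, with an unadjusted p of 0.0311 and an adjusted p of 0.98 (limma, Benjamini-Hochberg). The unadjusted p no longer passed 0.05 when vitrified replicate 1 (difference 0.45), vitrified replicate 2 (0.32) or slow-frozen replicate 2 (0.29) was left out. The second probe had 8.07, 8.10, 8.20 and 8.10 in vitrified pools, against 8.13, 7.99, 8.09 and 8.02 in slow-frozen pools, a difference of 0.06 ± 0.13 (95% interval -0.22 to 0.34). The third had 8.21, 7.88, 8.002 and 7.63 in vitrified pools, against 8.16, 7.50, 8.18 and 7.81 in slow-frozen pools, a difference of 0.02 ± 0.19 (95% interval -0.41 to 0.45). The groups overlapped for both of these. Both were above the controls in all 8 pools but far dimmer than the first probe, and whether this narrowed their differences was not tested.

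The kinases of mitosis and the exit factor CDC20 were close to even, with 4 probes higher, 4 lower and a median of 0.00. Aurora A (AURKA), which matures the spindle poles, differed by 0.01 ± 0.13, the narrowest error of these probes. Polo-like kinase 1 (PLK1), which acts from mitotic entry to cytokinesis, was read by 3 probes. The one with the smallest p had 7.39, 7.35, 7.34 and 7.43 in vitrified pools, against 7.29, 7.39, 7.32 and 6.88 in slow-frozen pools. It was above the controls in 4 of 4 vitrified and 1 of 4 slow-frozen pools. It passed the filter only through the vitrified pools, where it is higher, and is among the 4 higher probes. Slow-frozen replicate 4 alone was far below, for a difference of 0.16 ± 0.15 (95% interval -0.17 to 0.48). The other PLK1 probes differed by 0.01 and -0.08. Aurora B (AURKB), the kinase of the chromosomal passenger complex, had 9.01, 8.88, 7.97 and 8.84 in vitrified pools by its second probe, against 8.60, 8.53, 9.29 and 8.89 in slow-frozen pools. Vitrified replicate 3 lay far below the rest, and the difference of -0.16 ± 0.25 (95% interval -0.71 to 0.40) turned to 0.13 without it, and to 0.03 without slow-frozen replicate 3. Its other probes differed by -0.02 and 0.07. CDC20, which activates the ligase that ends mitosis, differed by -0.04 ± 0.20.

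The spindle checkpoint genes gave differences of both signs. BUB1B, which encodes BUBR1, a component of the checkpoint complex, had 11.75, 12.02, 11.75 and 11.80 in vitrified pools, against 11.38, 11.44, 11.48 and 12.08 in slow-frozen pools. Slow-frozen replicate 4 was above every other pool and the other slow-frozen pools were below all vitrified pools. The difference was 0.23 ± 0.18 (95% interval -0.15 to 0.62), and it ran from 0.13 when vitrified replicate 2 was left out to 0.40 when slow-frozen replicate 4 was. Of the 8 such fits in limma, the unadjusted p passed 0.05 only in the last. MAD2L1, which encodes the checkpoint protein MAD2, had 14.24, 14.62, 14.34 and 14.54 in vitrified pools, against 14.67, 14.86, 14.40 and 14.78 in slow-frozen pools, a difference of -0.24 ± 0.16 (95% interval -0.59 to 0.10) with overlap. A further probe under the symbol MAD2, outside the set, differed by -0.22 ± 0.20. The kinase BUB1 differed by 0.03 ± 0.15.

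The 4 probes of the chromosome and proliferation markers were all on the lower side in vitrified pools, with a median of -0.15. Survivin (BIRC5), a passenger protein made in G2 and mitosis, had 10.30, 10.19, 9.60 and 9.66 in vitrified pools by its second probe, against 10.22, 10.53, 10.51 and 9.65 in slow-frozen pools. Pools of both groups were spread over the same range, and the difference was -0.29 ± 0.19 (95% interval -0.72 to 0.14). It was -0.09 when slow-frozen replicate 3 was left out and -0.43, with an unadjusted p that passed 0.05 in limma, when slow-frozen replicate 4 was. Its first probe differed by -0.09 ± 0.21. Topoisomerase II alpha (TOP2A), which untangles replicated chromosomes, had 8.79, 8.48, 8.32 and 8.52 in vitrified pools, against 9.05, 8.45, 8.67 and 8.61 in slow-frozen pools, a difference of -0.17 ± 0.16 (95% interval -0.53 to 0.20) with overlap. Ki-67 (MKI67), the antigen of cycling cells, differed by -0.14 ± 0.15 and was above the controls in 3 of 4 vitrified and 4 of 4 slow-frozen pools.

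**Figure D3:**
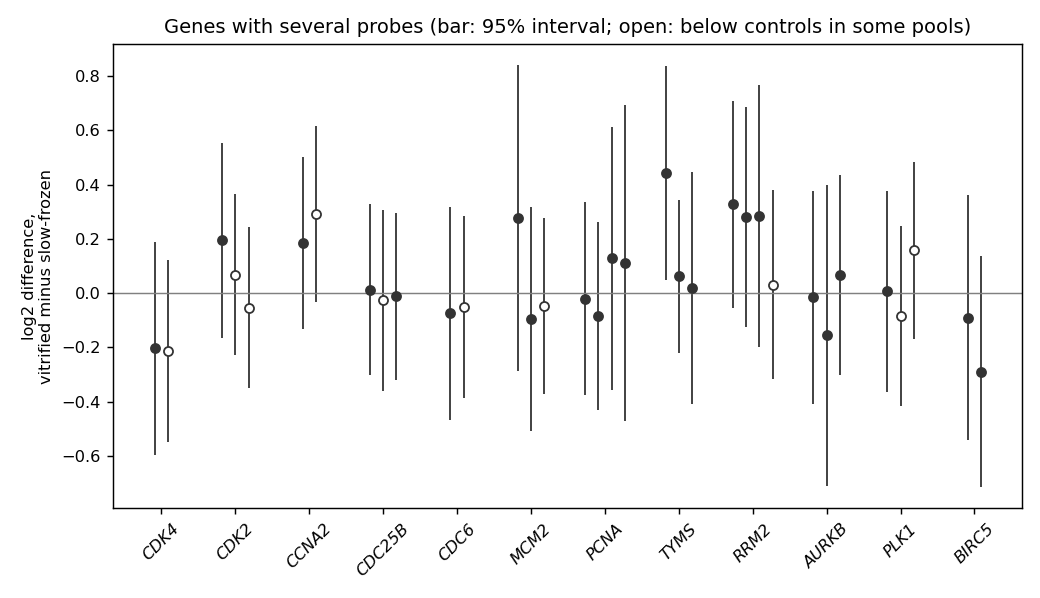
Log2 difference, vitrified minus slow-frozen, of each probe of the 12 genes with several probes (bar: 95% interval; open circle: not above the negative controls in all 8 pools). In 6 genes the probes fall on both sides of 0, in 3 all are above it and in 3 all are below.

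Probes of a gene are not replicates of it, and their differences were compared as a description. Among the 12 genes with several tested probes, all probes of CCNA2, TYMS and RRM2 were higher in vitrified pools, all probes of CDK4, CDC6 and BIRC5 were lower, and those of the other 6 genes went both ways. For CCNA2, RRM2 and CDK4 the second, the fourth and the second probe passed the filter only through the group in which they are higher, so their direction adds little to that of the other probes. The widest gap between probes of a gene was 0.43, for TYMS. After group and dye were removed, the deviations of 34 pairs of probes of the same gene had a median correlation over the 8 pools of 0.12, and 1736 pairs from different genes had 0.04. The mean correlation was 0.04 over all pairs of the 60 probes and 0.00 over all probes of the array, on 5 residual degrees of freedom and from values that share pools.

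The cell cycle set as a whole did not follow the groups from pool to pool. The median deviation of the 60 probes from their own means was -0.02, 0.10, 0.02 and -0.01 in vitrified replicates 1 to 4, against 0.00, -0.08, -0.03 and 0.04 in slow-frozen replicates 1 to 4. Vitrified replicate 2 was the highest pool and slow-frozen replicate 2 the lowest, and the others lay between them in mixed order. For the nucleotide supply probes the medians were 0.23, 0.22, 0.08 and 0.05 in vitrified pools, against -0.01, -0.17, -0.18 and -0.05 in slow-frozen pools. Of the 8 probes, 7 come from RRM2 and TYMS. An RRM2 probe among them passed the filter only through the vitrified pools, where it is higher. These medians did not overlap, but they do without that probe, in vitrified replicate 4 and slow-frozen replicate 1. The medians of the S phase, G2 and mitosis cyclins and kinases were 0.05, 0.225, 0.10 and 0.08 in vitrified pools. In slow-frozen pools they were 0.03, -0.001, -0.09 and -0.01. This class has 5 probes, and its second CCNA2 probe passed the filter only through the vitrified pools, where it is higher. Its medians did not overlap either, but they do without that probe. For the G1 cyclins and kinases the medians were -0.08, 0.08, -0.22 and -0.01 in vitrified pools, against 0.09, 0.07, -0.06 and 0.08 in slow-frozen pools, with overlap. Medians of the CDC25, licensing, MCM and fork, mitotic kinase, spindle checkpoint and chromosome marker classes also overlapped between groups. How often classes of this size do not overlap over the whole array was not tested.

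**Figure D4:**
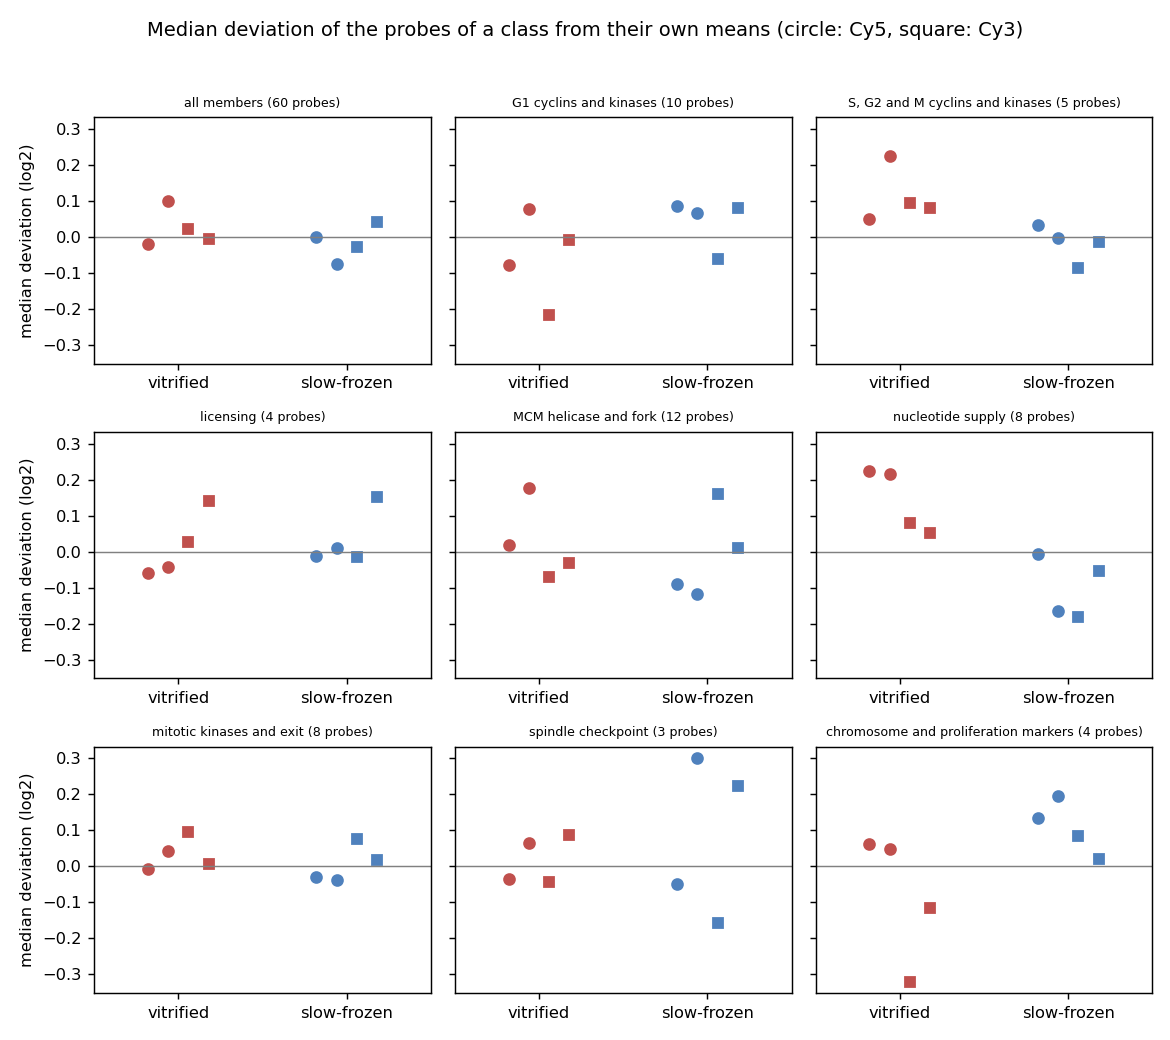
Median deviation (log2) of the probes of a role from their own means over the 8 pools, vitrified left of slow-frozen (circle: Cy5, square: Cy3). The CDC25 class and the single inhibitor probe are not drawn. The pools of both groups are mixed for all members together. The nucleotide supply medians are at 0.05 or above in vitrified pools and at -0.01 or below in slow-frozen pools. Those of the S, G2 and M cyclins and kinases are at 0.05 or above in vitrified pools and at 0.03 or below in slow-frozen pools. Both classes hold a probe that passed the filter only through the vitrified pools, and without it the groups overlap.

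Dye was a term of the fit, and the dyes were balanced between groups. In 3 of the 60 probes dye had an unadjusted p under 0.05, 5%, against 7.28% of all probes. They were MCM4 (Cy5 minus Cy3 -0.52), 1 probe of CDC25B (-0.45) and the second BIRC5 probe (0.45).

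Beyond the set, 140 further genes of replication, mitosis, chromosome segregation and cell cycle control were listed by their known role. Of these 130 had a probe and 125 were tested, each by its brightest probe. None passed the adjustment (smallest adjusted p 0.91 by limma with Benjamini-Hochberg), and 8 had an unadjusted p under 0.05, 6.4%, against 4.81% of all probes. There were 5 higher and 3 lower in vitrified pools. Over the list 85 genes were higher and 40 lower in vitrified pools, with a median of 0.09, against 51.4% of all probes higher and a median of 0.01. These counts include genes that passed the filter only through the group in which they are higher. CDKN2B, POLD1, E2F2 and NCAPD3 did so through the vitrified pools, and ANLN, SMC1A and INCENP through the slow-frozen pools. The values over all probes include dim probes and several per gene, so their base is unlike that of this list. In a limma fit of only the probes above the controls in all 8 pools, 5.77% had an unadjusted p under 0.05. In that fit 5 genes of the list did. No share of the list is given for that fit, so this count cannot be set against the percentage.

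The 3 genes of this list with the smallest p in each direction are given by pool. CDC7, the kinase that triggers licensed origins to fire, had 9.98, 10.56, 10.29 and 10.25 in vitrified pools, against 9.80, 9.97, 9.31 and 9.80 in slow-frozen pools. The groups did not overlap, and the difference was 0.55 ± 0.18 (95% interval 0.16 to 0.94), though a second CDC7 probe differed by 0.03 ± 0.18. GINS1, a subunit of the complex that joins CDC45 and MCM at the fork, had 13.67, 13.99, 13.74 and 13.77 in vitrified pools, against 13.09, 13.06, 13.31 and 13.72 in slow-frozen pools. Only slow-frozen replicate 4 reached the vitrified levels, the difference was 0.50 ± 0.17 (95% interval 0.13 to 0.87), and the other GINS1 probes differed by 0.46 ± 0.22 and 0.44 ± 0.14. STAG2, a cohesin subunit, had 11.39, 11.90, 11.33 and 11.74 in vitrified pools, against 11.11, 11.01, 11.17 and 11.26 in slow-frozen pools, without overlap, a difference of 0.45 ± 0.17.

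On the lower side, MAD2L2, which encodes a subunit of translesion polymerase zeta, had 11.74, 11.57, 12.50 and 12.10 in vitrified pools, against 11.48, 12.19, 13.19 and 13.09 in slow-frozen pools. The groups overlapped at a difference of -0.51 ± 0.20, and 6 other MAD2L2 probes ran from -0.48 to 0.21. The dye difference of this probe (Cy5 minus Cy3 -0.98) was larger in size than its group difference. The same held for the probe at -0.48 (Cy5 minus Cy3 -1.08). MAD1L1, which anchors MAD2 at kinetochores, had 8.82, 8.48, 8.20 and 8.71 in vitrified pools, against 8.60, 9.34, 8.93 and 9.34 in slow-frozen pools, a difference of -0.50 ± 0.21 with overlap. POLA1, the catalytic subunit of the polymerase that starts new strands, had 9.13, 9.23, 9.02 and 9.27 in vitrified pools, against 9.14, 9.68, 9.72 and 9.55 in slow-frozen pools. Slow-frozen replicate 1 alone reached the vitrified levels, and the difference was -0.36 ± 0.16.

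Markers of the blastocyst lineages lay on different sides in the 2 groups, although none passed the adjustment in limma. In a pool of whole embryos, fewer cells of a type and less RNA per cell cannot be told apart. Of 14 tested trophectoderm markers, which mark the outer layer that forms the placenta, 13 were lower in vitrified pools, with a median difference of -0.33. Their summed intensity was 123268 to 151938 in vitrified pools, against 165957 to 201325 in slow-frozen pools. PTGS2 (-1.22) and KRT19 (-1.06) had the lowest differences of this list. The study had reported both as lower after vitrification than in controls, and the list was drawn up with its results known. Of 8 tested inner cell mass markers, 7 were higher in vitrified pools, with a median of 0.32 and sums of 34738 to 44768 in vitrified pools, against 28996 to 33647 in slow-frozen pools. Of 5 tested hypoblast markers, 4 were higher, with a median of 0.38 and sums of 13538 to 19786 in vitrified pools, against 8520 to 18527 in slow-frozen pools. The sums did not overlap between groups for the trophectoderm and the inner cell mass. They add intensities on the linear scale, so the brightest markers weigh most in them. For the trophectoderm these were KRT8, KRT18, TFAP2C and KRT19, with differences of -0.37, -0.28, 0.05 and -1.06. For the inner cell mass they were KLF4, DPPA3 and POU5F1, with 0.61, 0.17 and 0.36. The gap between the sums rested on single markers. Without KRT8 the trophectoderm sums of the groups overlap, and without KLF4 those of the inner cell mass do. The part of the marker shifts in the values of CCND2, CDC25C, TYMS and the other members was not tested. Cumulus and granulosa markers, from cells that could adhere to embryos, had sums of 2200 to 2541 in vitrified pools, against 2247 to 2959 in slow-frozen pools, with 4 of 10 above the controls in all 8 pools. Blood markers had sums of 1343 to 1772 in vitrified pools, against 1421 to 1772 in slow-frozen pools.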

How the data were processed

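The deposited intensity values are the authors' median spot and local background brightness for each channel, read with Array-Pro. Each of the 4 files joins a vitrified and a slow-frozen channel, which according to the methods come from separate slides. The labels give group, replicate number and dye. Values were normexp-corrected (offset 50), loess-normalized within each file and quantile-normalized over the 8 channels, on the log2 scale. Of 43794 probes, 30034 passed the filter on negative controls (153 spots, 95th percentile, 58 probes marked as ignored left out). A linear model with group and dye was fitted to each probe in limma (version 3.58.1, R 4.3.3, moderated two-sided tests), with Benjamini-Hochberg adjustment across the 30034 probes. The fit was tested on simulated data, in which changes as small as those measured in these genes seldom passed the adjustment, so a count of 0 past it does not show that nothing differed. Besides the intensities, the authors deposited log2 ratios, which followed log2 of Cy5 over Cy3 after subtraction and loess (r of at least 0.999996) and served as an alternative. Their own steps were subtraction, lowess, quantile normalization and LIMMA in FlexArray.

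The members and lists were chosen with earlier results of these data known. Symbols were those of the platform table. For the other lists 1524 were updated through the RefSeq gene table. Levels by pool are given for the 2 probes with the smallest p in each role, every probe of a gene with 3 or more probes of which 1 had an unadjusted p under 0.05, and the 3 members with the highest mean level. The replicates are separate pools of embryos from cycles run on separate dates, and their number limits the precision. Alternatives changed the background correction, loess, quantile step, filter, dye term, block and the pools included. Sequences, promoters and coordinates were not analysed here.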

Additional observations from a re-analysis of the deposited data

Results flagged for a closer look

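In 6 of 120 groups of 4 pools (5%), over the 60 cell cycle probes, the highest or lowest pool stood apart by the 95% critical value of Dixon's gap ratio. Chance flags about 1 in 20 groups, which is the rate seen. In vitrified pools, 1 probe of CDC25B (difference -0.03) had 7.70 in replicate 3, against 7.29 to 7.36 in the others (ratio 0.835). AURKB had 7.97 in vitrified replicate 3, against 8.84 to 9.01 (0.837), and CDT1 had 7.48 in vitrified replicate 1, against 7.58 to 7.60 (0.844). In slow-frozen pools, CCNA2 had 12.70 in replicate 3, against 13.07 to 13.12 (0.889). BUB1B had 12.08 in slow-frozen replicate 4, against 11.38 to 11.48 (0.869), and CDC6 had 7.32 in slow-frozen replicate 2, against 7.48 to 7.51 (0.843).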

How the results depend on the processing

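The count of cell cycle probes past the adjustment and past the thresholds of the study was 0 under every alternative run. Their count at an unadjusted p under 0.05 (3) was 1 without quantile normalization, 7 with a random block for each deposited file, 5 with the deposited log2 ratios and 1 to 7 with a pool left out, while that of all probes (1444) was 841, 2709, 2220 and 870 to 1787. The 1 probe of the array past the adjustment was lost (0) without background correction, without loess, with probes above controls in 8 pools, with the replicate block and with the log2 ratios, and the count was 0 to 1 with a pool left out. The count of other cell cycle genes (8) was 3 without quantile normalization, 5 with probes above controls in 8 pools, 5 without the dye term and 3 to 9 with a pool left out. The median difference (0.01) ran from 0.00 to 0.03 with a pool left out. The causes were not tested. According to the methods a deposited file joins channels of separate slides, so the file block does not stand for a shared array. Same-numbered pools of both groups deviated with correlations of 0.16, 0.09, -0.03 and 0.09, and the labels do not tie the numbers to production cycles, so the numbers were not taken to pair them. With the replicate block, the first TYMS probe kept its difference of 0.44 with an unadjusted p of 0.053, and CCND2 and CDC25C stayed under 0.05. CCND2 kept its sign and an unadjusted p under 0.05 under every alternative. Of 394 re-fits of single probes, 354 kept direction and side of the threshold, 9 lost and 14 gained an unadjusted p under 0.05, and 17 small differences changed sign. With 4 pools per group the 95% interval reached 0.37 to either side at the median cell cycle probe.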
